A study of Mus musculus with 12 samples.

Results

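The genes followed here are 10 genes of the actin cytoskeleton, of the 24107 in the deposited expression table. They were taken by symbol: Tmsb4x, Tmsb10, Actb, Actg1, Pfn1, Cfl1, Arpc1b, Coro1a, Lcp1 and Lsp1. They were chosen with the values of the 4 groups already known, so their levels and differences are given as a description, without a p-value. All 10 passed the filter on low values, a minimum of 1 FPKM in 3 or more libraries, which left 11462 genes for testing. FPKM are read fragments scaled to gene length and library depth. The annotation behind the lengths is not given, and the length recovered for Lsp1, 4472 bases, exceeded its closest annotated transcript. Levels of different genes can therefore be set side by side only roughly. Comparisons of the same gene between groups do not depend on its length.

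The samples were 12 RNA libraries from C57BL/6 mice, 3 for each of 4 groups. Megakaryocyte-erythroid progenitors (MEP), from which platelets and red cells descend, and whole marrow, both as controls, were taken from animals of wild-type genotype. Leukemic MEP and GFP+ marrow cells carried the genotype Prdm16s and were isolated from recipient mice with leukemia. The 2 Prdm16s groups therefore differ from the controls in Prdm16s, in leukemia and in being from recipients, which cannot be told apart. Replicates 1 and 2 of both Prdm16s groups also differed from all controls in Xist and Ddx3y, which mark female and male cells. GFP+ marrow was selected by its fluorescence and control marrow was not. The age of the animals, the vector and its promoter, and whether replicates are different animals, are not given here by the labels, so p-values measure only the spread between these samples.

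Actin exists in cells as free monomers and as filaments, and the supply of monomers, the branching and bundling of filaments and their disassembly are each run by dedicated proteins. Thymosin beta-4, the product of Tmsb4x, holds monomers in reserve, and profilin (Pfn1) hands them to growing filament ends. Cofilin (Cfl1) severs filaments, the Arp2/3 complex, which holds an Arpc1a or Arpc1b subunit, starts branches, and plastin (Lcp1) bundles filaments. Coro1a, Lcp1 and Lsp1 are known as actin-binding genes of white blood cells, where the cytoskeleton serves crawling and engulfment.

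The coding sequences of the 2 beta-thymosin genes among the 10 are shown because their reads must be kept apart to compare their levels. Tmsb4x lies on the minus strand of chromosome X and its coding sequence spans X:167207501-167208036, introns included, and that of Tmsb10, also on the minus strand, spans 6:72957618-72958012 (GENCODE annotation, GRCm38). Both are 135 bases long. Capitals mark the bases at which they differ.
Tmsb4x: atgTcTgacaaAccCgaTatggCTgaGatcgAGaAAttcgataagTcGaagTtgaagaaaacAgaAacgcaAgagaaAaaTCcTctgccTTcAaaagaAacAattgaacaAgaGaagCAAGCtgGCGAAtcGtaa
Tmsb10: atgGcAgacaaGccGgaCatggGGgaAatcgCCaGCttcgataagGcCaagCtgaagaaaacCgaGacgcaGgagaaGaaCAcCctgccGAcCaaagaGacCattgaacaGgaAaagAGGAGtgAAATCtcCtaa
The pair differed at 40 bases, an identity of 70.37%, and the longest run of shared bases was 10. No 50-base window of an annotated Tmsb4x transcript occurred in a transcript of another annotated gene. For Tmsb10, 43.5% of windows occurred in 5 other genes, and for Actg1 56.7% occurred in 22 others. Tmsb10 rested on 13 to 426 recovered reads a library and Actg1 on 13 to 199, so the levels of these 2 genes are uncertain. The share of such windows was 23.9% for Arpc1b, 20.5% for Cfl1, 14.4% for Lcp1, 14.2% for Actb and 0 for Pfn1, Coro1a and Lsp1.

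The whole reads behind the FPKM values came to 6.718 to 9.709 M in 10 libraries, 0.5717 M in leukemic MEP 3 and 1.15 M in GFP+ marrow 2. Leukemic MEP 3 stood apart from its group. The summed FPKM of 10 neutrophil and granule markers was 99836 in it, against 906 and 2271 in leukemic MEP 1 and 2. The 3 control MEP had 27.4 to 399, and the 6 marrow libraries 76768 to 130778. Of 8 megakaryocyte markers, at least 7 were above 0 in each library, and their sum was 5685 and 4660 in leukemic MEP 1 and 2, 299 in leukemic MEP 3 and 9.75 to 124 in control MEP. The sum was 141 to 514 in the marrow libraries. The sum of 10 erythroid markers was 1581 and 2002 in leukemic MEP 1 and 2, 177 in leukemic MEP 3 and 1819 to 2640 in control MEP. Among defining markers, Gata1 was at 210 to 335 FPKM in the 5 other MEP libraries and at 37.7 in leukemic MEP 3. The MEP differences of the 10 genes are given with and without replicate 3, and in such bulk samples fewer cells of a type and less RNA per cell cannot be told apart.

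Tmsb4x was low in control MEP and high in leukemic MEP. Its level was 31.1, 158 and 40.0 FPKM in replicates 1, 2 and 3 of control MEP, and 4552, 4620 and 2886 in leukemic MEP. In control marrow it was 3124, 3385 and 3133, and in GFP+ marrow 7768, 5945 and 7998. Control MEP lay below all 9 other libraries, leukemic MEP and control marrow overlapped, and GFP+ marrow lay above all others. The group means were 76.3 ± 70.7, 4019 ± 982, 3214 ± 149 and 7237 ± 1125 FPKM (SD, n = 3), in the order just given. The difference between leukemic and control MEP was 6.05 ± 0.49 log2 units (SE), a 52.7-fold difference of means. It was 6.27 without leukemic MEP 3 and 6.76 without control MEP 2, the highest of the control MEP. Control MEP 2 also held the highest sums of granule (399) and megakaryocyte markers (124) in its group, and their part in its Tmsb4x level was not tested. Among all genes of a library, Tmsb4x ranked 3rd to 14th by FPKM outside control MEP and 729th to 2820th within them. The difference in marrow was 1.16 ± 0.49, and 0.27 under quantile normalization, which gives the libraries one distribution of values.

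Tmsb10, the other thymosin gene of this set, followed at far lower levels. It stood at 7.74, 18.5 and 11.7 FPKM in the control MEP libraries and at 40.6, 33.2 and 23.1 in the leukemic ones. In control marrow it was 20.02, 31.4 and 22.4, and in GFP+ marrow 41.9, 19.7 and 24.1. The 2 MEP groups did not overlap, whereas the marrow groups overlapped with each other and with leukemic MEP. The difference was 1.33 ± 0.35 in MEP, or 1.54 without leukemic MEP 3, and 0.16 ± 0.35 in marrow. The ratio of Tmsb4x to Tmsb10 was 3.42 to 8.51 in control MEP, 112 to 139 in leukemic MEP, 108 to 156 in control marrow and 185 to 331 in GFP+ marrow, without overlap between control MEP and the others.

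**Figure D1:**
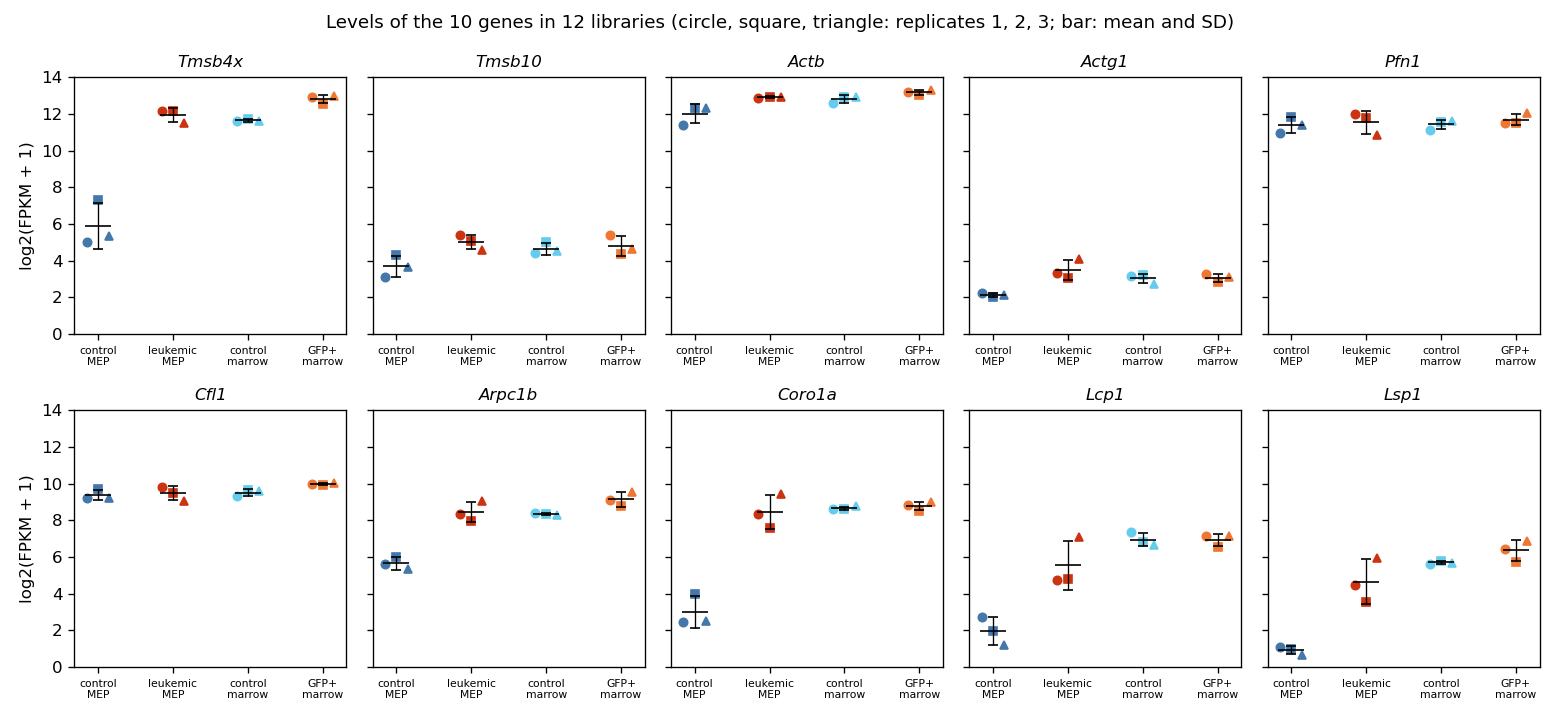
Levels of the 10 genes as log2(FPKM + 1) in each library, by group, with replicates 1, 2 and 3 as circles, squares and triangles; the bars are the mean and SD of 3 libraries. Tmsb4x, Coro1a, Lcp1, Lsp1 and Arpc1b are lowest in control MEP by a wide gap, and Pfn1 and Cfl1 stand at similar heights in the 4 groups.

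The actin genes themselves had differences of 0.90 and 1.37 in MEP. Actb, which encodes beta-actin, had FPKM values of 2696, 5104 and 5066 in the control MEP libraries and of 7346, 7855 and 7857 in the leukemic ones. It was at 6078, 7815 and 7832 in control marrow and 9445, 8374 and 10210 in GFP+ marrow. Control MEP lay below all other libraries and GFP+ marrow above, while leukemic MEP and control marrow overlapped. The difference in MEP was 0.90 ± 0.36, or 0.88 without leukemic MEP 3, and in marrow it was 0.37 ± 0.36. It ranked 1st to 6th of all genes in every library and held 0.685 to 1.12% of summed FPKM in control MEP and 1.62 to 1.87% in leukemic MEP. Control MEP was 0.81 log2 units below control marrow, but 0.78 above it under quantile normalization. Actg1, which encodes gamma-actin, spanned 3.03 to 3.68 FPKM in control MEP, 7.20 to 16.3 in leukemic MEP, 5.72 to 8.35 in control marrow and 6.17 to 8.54 in GFP+ marrow. Its difference in MEP was 1.37 ± 0.30, and 1.06 without leukemic MEP 3, where it rested on 19 reads.

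Profilin and cofilin, which handle monomers and filament turnover in most cells, overlapped between the MEP groups. Pfn1 measured 2026, 3593 and 2672 FPKM in the control MEP libraries and 4099, 3546 and 1819 in the leukemic ones. In control marrow it was 2241, 3013 and 3118, and in GFP+ marrow 2900, 2920 and 4160. All 4 groups overlapped, and the difference in MEP was 0.15 ± 0.37, or 0.50 without leukemic MEP 3, the lowest library. Over 22 alternatives it ran from -0.61 to 0.52, so no direction is given. Cfl1 measured 595, 841 and 597 FPKM in control MEP, then 904, 726 and 539 in leukemic MEP, 636, 798 and 767 in control marrow and 997, 984 and 1034 in GFP+ marrow. It overlapped among the first 3 groups, and each GFP+ marrow library lay above the other 9. Its difference was 0.08 ± 0.25 in MEP, or 0.28 without leukemic MEP 3, and 0.46 ± 0.25 in marrow, where it was 0.17 under quantile normalization and 0.22 with equal library totals. Pfn2, another profilin gene, reached 10.7 and 15.1 FPKM in replicates 1 and 2 of leukemic MEP. It was listed at 0 in leukemic MEP 3 and at 0.131 to 0.253 in control MEP. Pfn2 passed the filter on low values only through leukemic MEP, so its p is not given, and it was not called. In limma, the cofilin paralogs Dstn (0.93 ± 0.55, adjusted p = 0.236) and Cfl2 (0.39 ± 0.32, adjusted p = 0.399) missed the threshold in MEP.

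Arpc1b, a subunit of the branching complex known from blood cells, read 48.4, 63.8 and 39.1 FPKM in the control MEP libraries and 324, 247 and 522 in the leukemic ones. It was at 333, 326 and 316 in control marrow and 558, 433 and 757 in GFP+ marrow. Control MEP lay below all others, and leukemic MEP overlapped with both marrow groups. The difference was 2.79 ± 0.30 in MEP, or 2.49 without leukemic MEP 3, and 0.80 ± 0.30 in marrow. Its paralog Arpc1a spanned 65.5 to 69.8 FPKM in the control MEP libraries and 57.1 to 81.7 in the leukemic ones (0.05 ± 0.18, limma adjusted p = 0.869). The ratio of Arpc1b to Arpc1a was therefore below 1 in control MEP, 0.596 to 0.913. It was 4.32 to 6.39 in leukemic MEP, 5.75 to 6.90 in control marrow and 7.73 to 14.8 in GFP+ marrow. By FPKM, Arpc1a was the higher of the pair in control MEP and Arpc1b in the other 9 libraries. The share of windows found in other genes was 23.9% for Arpc1b and 1.9% for Arpc1a. Its effect on the levels was not tested, so the order within control MEP is uncertain.

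The other genes of the complex had MEP differences of -0.28 to 1.20. Of 9, 8 were tested, since Actr3b was below the filter, and 2 rose (13.7% of all tested genes did). Arpc2 went from 330 ± 28.6 to 767 ± 128 FPKM (1.20 ± 0.23, adjusted p = 0.00232), and Arpc4 from 92.7 ± 11.9 to 150 ± 43.5 (0.66 ± 0.22, adjusted p = 0.0424). The call of Arpc4 was lost in 11 of 22 alternatives, among them leaving out any control MEP or control marrow library, leukemic MEP 1 or 3, or GFP+ marrow 1 or 2, with adjusted p up to 0.137. The actin-related genes Actr3 (0.94 ± 0.33, adjusted p = 0.0557) and Actr2 (0.45 ± 0.22, adjusted p = 0.157) did not pass. Arpc3, Arpc5 and Arpc5l had differences of -0.07, 0.23 and -0.28, with adjusted p of 0.834, 0.43 and 0.448. In marrow none of the 8 passed limma (3.02% of all tested genes were called higher), with differences of 0.04 to 0.76 and the lowest adjusted p at 0.0558 for Actr2. At an unadjusted p under 0.05 there were 5, against 1142 higher and 1598 lower of all 11462 genes. Voom called 3, against 804 higher and 1102 lower.

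**Figure D2:**
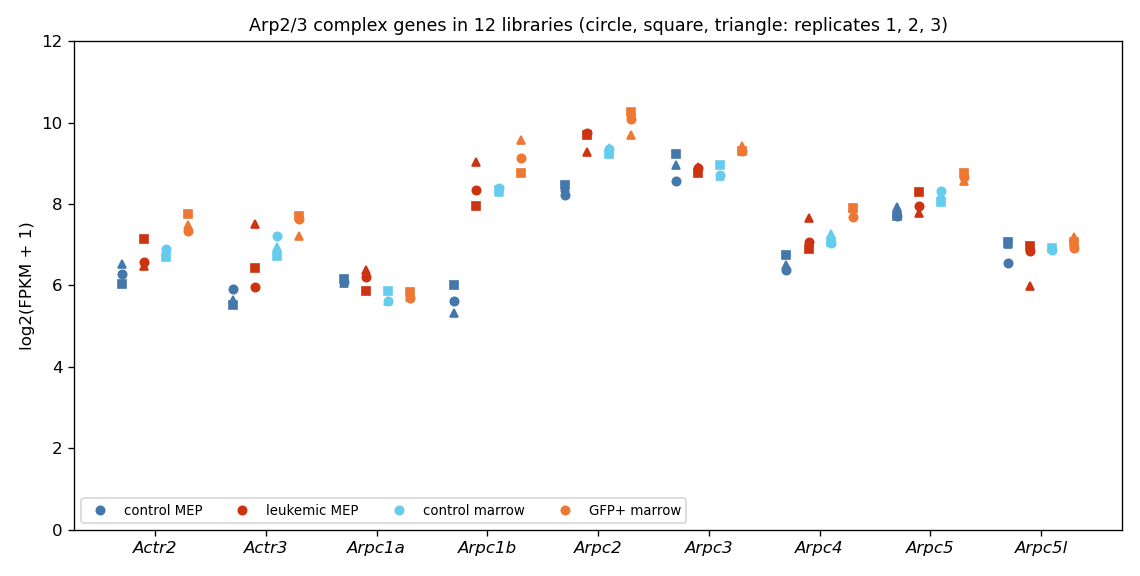
log2(FPKM + 1) of 9 genes of the Arp2/3 complex in the 12 libraries; colours mark the groups and symbols the replicates. Arpc1b spans the widest range, with the control MEP libraries at 39.1 to 63.8 FPKM below all others, and its paralog Arpc1a does not follow it.

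Among the filament-binding genes of white blood cells, Coro1a had the widest gap. The gene read 4.55, 14.9 and 4.68 FPKM in the control MEP libraries and 318, 189 and 681 in the leukemic ones. It was at 391, 389 and 432 in control marrow and 460, 363 and 503 in GFP+ marrow. Control MEP lay below the other 9 libraries, which overlapped across groups. The difference was 5.45 ± 0.45 in MEP, or 4.96 without leukemic MEP 3, and 0.12 ± 0.45 in marrow. The related gene Coro1b rose from 87.7 ± 17.9 to 165 ± 23.2 FPKM (0.92 ± 0.21, adjusted p = 0.00793), and Coro1c was at 19.3 ± 5.75 and 14.4 ± 4.52 (adjusted p = 0.334). Coro1a to Coro1b stood at 0.0515 to 0.141 in control MEP, 1.36 to 3.90 in leukemic MEP, 2.83 to 2.99 in control marrow and 2.22 to 2.44 in GFP+ marrow.

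Lcp1, which encodes L-plastin, was at 5.54, 2.84 and 1.29 FPKM in control MEP. In leukemic MEP it was at 26.3 and 26.8 in replicates 1 and 2 and at 136 in replicate 3. It was at 161, 112 and 101 in control marrow and 141, 93.0 and 138 in GFP+ marrow. Leukemic MEP 1 and 2 lay between control MEP and all marrow libraries, and replicate 3 lay within the marrow range. The MEP difference was 3.61 ± 0.56, and 2.83 without replicate 3, while the marrow means were 125 ± 31.9 and 124 ± 26.9 FPKM. Pls3, a related plastin, spanned 0.0385 to 0.277 FPKM in the control MEP libraries and 1.40 to 1.83 in the leukemic ones (1.20 ± 0.32, adjusted p = 0.0175), a call lost without control MEP 2 or 3 or leukemic MEP 1 (adjusted p = 0.0611, 0.0637 and 0.0501).

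Lsp1, a leukocyte gene for a filament-binding protein, was also lowest in control MEP. Control MEP held 1.13, 0.963 and 0.594 FPKM, on 19 to 47 reads, and leukemic MEP 20.9, 10.9 and 61.4. It was at 48.1, 54.5 and 50.4 in control marrow and 86.2, 52.2 and 117 in GFP+ marrow. Replicates 1 and 2 of leukemic MEP lay between control MEP and all marrow libraries. The MEP difference was 3.75 ± 0.48, or 3.10 without replicate 3, and the marrow difference was 0.66 ± 0.48, with overlapping groups.

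**Figure D3:**
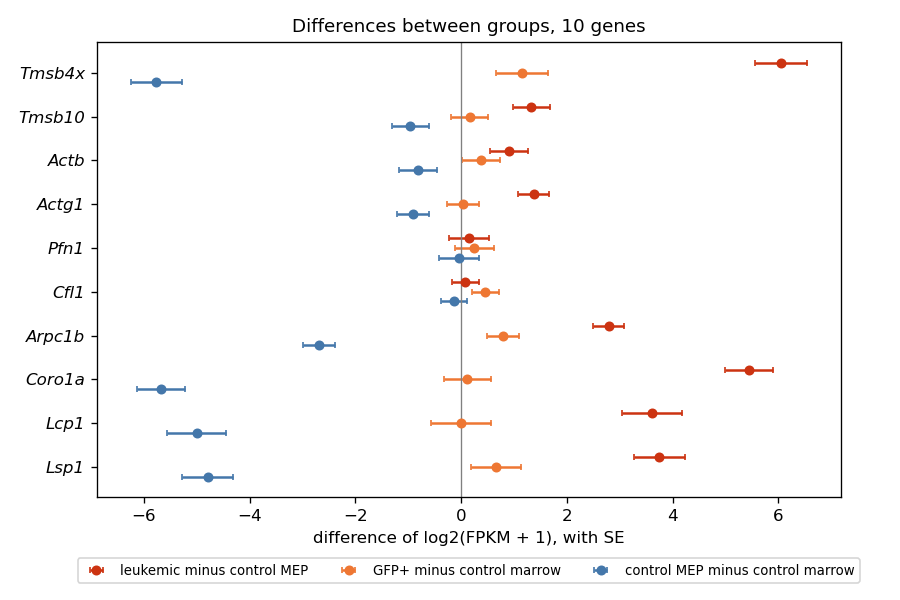
Differences of log2(FPKM + 1) between groups for the 10 genes, with bars of 1 SE from the fit over 12 libraries; red is leukemic minus control MEP, orange GFP+ minus control marrow and blue control MEP minus control marrow. Tmsb4x and Coro1a have the widest gaps, 6.05 and 5.45 in MEP, and the red and blue contrasts share the control MEP libraries.

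Over the 10 genes, 8 were higher in leukemic than in control MEP without overlap (21.1% of all tested genes were), and 7 were called at an adjusted p under 0.05 (13.7% of all tested genes were called higher). These genes were chosen on such values, so nothing is read from the counts. In marrow, 4 were higher without overlap (17.6% of all tested genes) and none was called with limma (3.02% of all were called higher). At an unadjusted p under 0.05, 2 were higher, against 1142 of all 11462 genes. Voom, a model of the recovered reads, called 2 higher, against 804 of all 11462. Control MEP lay below control marrow without overlap for 8 (26.1% of all), with differences of -5.76 for Tmsb4x, -5.67 for Coro1a, -5.00 for Lcp1, -4.79 for Lsp1 and -2.69 for Arpc1b. That contrast shares the control MEP libraries with the MEP comparison. Leukemic MEP lay below GFP+ marrow without overlap for 3 (8.30% of all). For this contrast the 5 genes just named had differences of -0.87, -0.34, -1.39, -1.69 and -0.71, and without leukemic MEP 3 of -0.65, -0.83, -2.16, -2.34 and -1.0. Of these, Tmsb4x turned to 0.36 under quantile normalization and Coro1a changed sign in 2 of 22 alternatives. The change in MEP minus the change in marrow was 5.33 ± 0.64 for Coro1a, 4.89 ± 0.69 for Tmsb4x, 3.61 ± 0.78 for Lcp1, 3.09 ± 0.68 for Lsp1 and 1.98 ± 0.42 for Arpc1b, and these 5 were the members called (4.52% of all tested genes were called with a larger change in MEP and 0.366% with a smaller one). Without leukemic MEP 3 these 5 values were 4.84, 5.11, 2.84, 2.44 and 1.69. Together the 10 genes made up 1.38 to 1.93% of the summed FPKM in control MEP, 3 to 4.15% in leukemic MEP, 2.77 to 3.01% in control marrow and 3.36 to 4.01% in GFP+ marrow.

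Leukemic MEP 1 and 2 were set against the mean of GFP+ marrow to place the 10 genes beside markers of marrow granulocytes. Tmsb4x stood at 62.9 and 63.8% of that mean, Coro1a at 72 and 42.7%, and Arpc1b at 55.6 and 42.3%. Lcp1 stood at 21.2 and 21.6% and Lsp1 at 24.5 and 12.8%. The 10 neutrophil and granule markers stood at 0.304 to 3.16% in replicate 1 and 0.244 to 2.90% in replicate 2. Each of the 10 actin genes was at a higher percentage than every such marker there. This order also held in control MEP 1, with the actin genes at 0.43% or more and the markers at 0.109% or less. It did not hold throughout control MEP 2 and 3, where the lowest actin gene was at 1.13 and 0.553% and the highest marker at 2.38 and 0.619%. Tmsb10, Actb, Actg1, Pfn1 and Cfl1 were at 27.1 to 108% in control MEP. In leukemic MEP 1 and 2, the monocyte markers with at least 10 FPKM in GFP+ marrow, 3 of 8, stood at 0.678 to 2.83%. The 3 megakaryocyte markers above that level stood at 832 to 1700% and 671 to 1417%. Among lymphoid markers, those above that level were Nkg7, 1 of 6 of T and NK cells, at 61.1 and 43.2% (1.84 to 10% in control MEP), and Cd79b, 1 of 6 of B cells, at 91.2 and 34.5% (1.15 to 3.02%). The T cell markers Cd3d and Cd3g and the B cell marker Pax5 were at 0 in both libraries, as were 4 and 5 of the 6 T and NK markers in all and 4 of the 6 B cell markers. Megakaryocyte markers, Nkg7 and Cd79b thus moved with the actin genes in these 2 libraries, and their part in the levels of the 10 genes was not tested. In leukemic MEP 3 the granule markers stood at 62.3 to 335%, with the actin genes of at least 10 FPKM at 39.9 to 154%. By library, Xist separated replicates 1 and 2 of both Prdm16s groups (39.2 FPKM or more) from the other 8 (0.0904 or less). The Y-linked Ddx3y went the opposite way, at 0.392 FPKM or less in the former and 10.3 or more in the latter. The split is thus one of female against male cells. Tmsb4x is X-linked, and the part of this split in its level was not tested. Leukemic MEP 3, which stood apart in its markers, was the one leukemic MEP library on the side of the control MEP, with Tmsb4x at 2886 FPKM, and GFP+ marrow 3 the one GFP+ marrow library, at 7998.

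**Figure D4:**
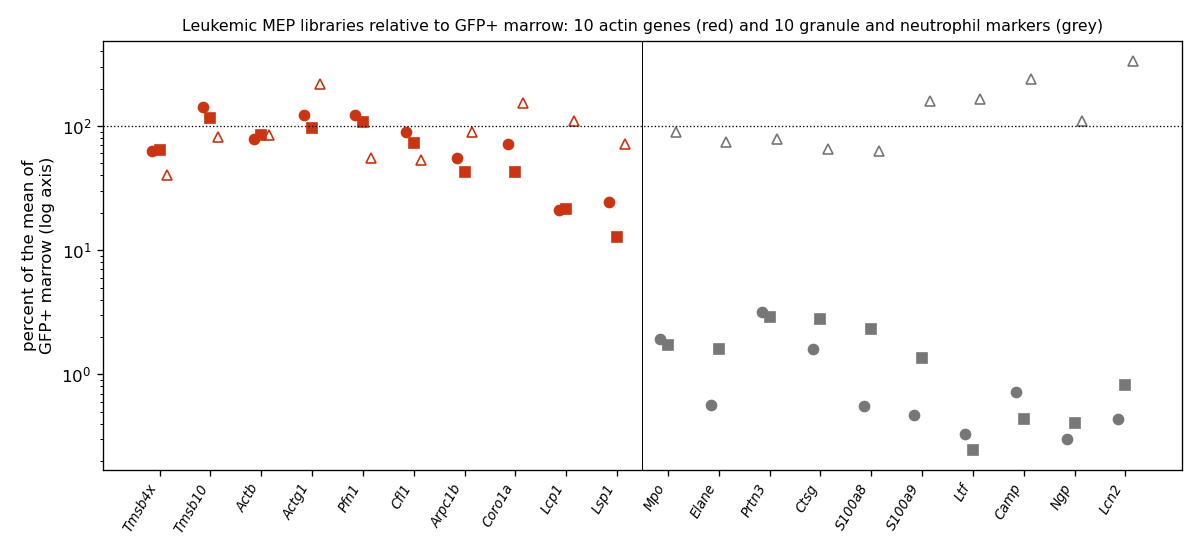
Level in the leukemic MEP libraries as a percentage of the mean of GFP+ marrow, on a log axis; red marks the 10 actin genes, grey 10 neutrophil and granule markers, filled circles and squares replicates 1 and 2, and open triangles replicate 3. In replicates 1 and 2 the actin genes lie at 12.8% or above and the markers at 3.16% or below, and in replicate 3 both sets lie in one range.

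The wider actin machinery was read from 126 other genes in 13 roles, of which 108 were tested. In leukemic MEP 48 rose and 4 fell, against 13.7% higher and 12.3% lower of all tested genes, and their median difference was 0.91, against 0.02 over all tested genes. With libraries left out the number called was 34 without control MEP 3 (1013 higher and 903 lower of all 11413 genes). It was 50 without leukemic MEP 3 (1715 and 1393 of all 11342). Bundling and crosslinking genes rose in 8 of 11 tested, among them Pls1, which passed the filter on low values only through leukemic MEP. Tropomyosins and non-muscle myosins rose in 7 of 10, formins and Ena/VASP genes in 5 of 11, and cofilin family genes and regulators in 5 of 12. Capping and severing genes rose in 5 of 12, membrane linkers in 2 of 6, coronins in 2 of 4 and monomer-binding genes in 1 of 6. None of the 3 genes of SRF and its coactivators, the transcription factors that drive many actin genes, passed limma in either direction in MEP, where their median difference was 0.53. None had an unadjusted p under 0.05. Voom called 1, with 1852 of all 11462 genes called higher and 1538 lower. The 4 other actin genes, those of muscle, were below the filter.

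The list genes with the largest rises in their roles are given next. Myo1g, a myosin of the leukocyte membrane, went from 0.732 ± 0.382 to 24.0 ± 20.2 FPKM (3.58 ± 0.44, adjusted p = 0.000117), with a mean of 12.4 FPKM and a difference of 2.95 without leukemic MEP 3. Pls1, another plastin, spanned 0.0581 to 0.473 FPKM in the control MEP libraries and read 18.8, 15.1 and 5.43 in the leukemic ones, above the marrow libraries (3.26 at most). It passed the filter on low values only through leukemic MEP, so its p is not given; among the 105 list genes that also pass without these libraries, 47 rose, against 13.5% of all such genes. Gmfg, a glia maturation factor gene of blood cells that acts on filament branches, rose by 2.97 ± 0.47, and Zyx, the zyxin gene of adhesion sites, by 2.95 ± 0.39. The formin gene Fmnl1 rose by 2.73 ± 0.39 and the monomer-binding twinfilin gene Twf2 by 2.16 ± 0.35. Add3, an adducin gene, rose by 1.29 ± 0.34 (adjusted p = 0.0165), a call lost without control MEP 2 or 3 or leukemic MEP 2 (adjusted p = 0.0661, 0.0633 and 0.0506).

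Of 15 tested genes of WASP, WAVE and cortactin, which switch on branching, 6 rose and 1 fell in MEP, against 13.7% higher and 12.3% lower of all tested genes. Cortactin and its blood cell homolog went opposite ways in MEP. Cttn, the cortactin gene, read 27.8, 17.8 and 19.0 FPKM in the control MEP libraries and 0.0836, 0.228 and 1.04 in the leukemic ones (adjusted p = 4.13e-06). It was at 9.76, 13.1 and 13.3 in control marrow and listed at 0 in each GFP+ marrow library (adjusted p = 1.57e-05). Hcls1 rose from 22.1 ± 2.78 to 59.4 ± 10.2 FPKM in MEP (1.38 ± 0.20, adjusted p = 0.000466), and fell from 68.3 ± 2.68 to 37.8 ± 6.20 in marrow (-0.85 ± 0.20, adjusted p = 0.0207). The marrow call of Hcls1 was lost without control marrow 1, 2 or 3 (adjusted p = 0.081, 0.0794 and 0.099) and without GFP+ marrow 3 (0.0643). The other 2 named genes with a fall in MEP were less firm. Add1 fell by 0.79 ± 0.24 (adjusted p = 0.0295), but missed the threshold in 5 of 22 alternatives, such as those without control MEP 1 or 2 or leukemic MEP 2 (adjusted p = 0.102, 0.077 and 0.0809). Rdx, the radixin gene, fell by 0.74 ± 0.25 (adjusted p = 0.0455), but missed the threshold in 14 of 22 alternatives, with adjusted p up to 0.143.

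In marrow 4 list genes rose and 6 fell, against 3.02% higher and 6.03% lower of all tested genes, and the median difference was 0.22 against -0.05. With equal library totals, which moved the median of all genes by -0.20, the split was 2 higher and 7 lower. Of all 11464 genes, 195 and 853 were then called. The count was 23 without leukemic MEP 3, a library that enters this comparison through the shared filter and spread alone. All genes called then were 939 higher and 1187 lower of 11342. The count was 3, 3 and 2 without control marrow 1, 2 and 3, and 5, 6 and 6 without GFP+ marrow 1, 2 and 3. Without control marrow 3, 109 of all 11326 genes were called higher and 279 lower. Capg, which caps filament ends in myeloid cells, rose from 92.8 ± 3.82 to 230 ± 30.4 FPKM (1.29 ± 0.20, adjusted p = 0.00157), and in MEP from 73.9 ± 14.1 to 169 ± 17.1 (1.19 ± 0.20, adjusted p = 0.00093). Myl12b, a myosin light chain gene, rose by 0.88 ± 0.20 (adjusted p = 0.0181), a call lost in 7 of 22 alternatives, including those without each control marrow library and without GFP+ marrow 1 or 3. GFP+ selection removes other marrow cells, and whether this moved the levels was not tested; the sum of erythroid markers was 2549 to 4092 in control marrow and 180 to 284 in GFP+ marrow.

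**Figure D5:**
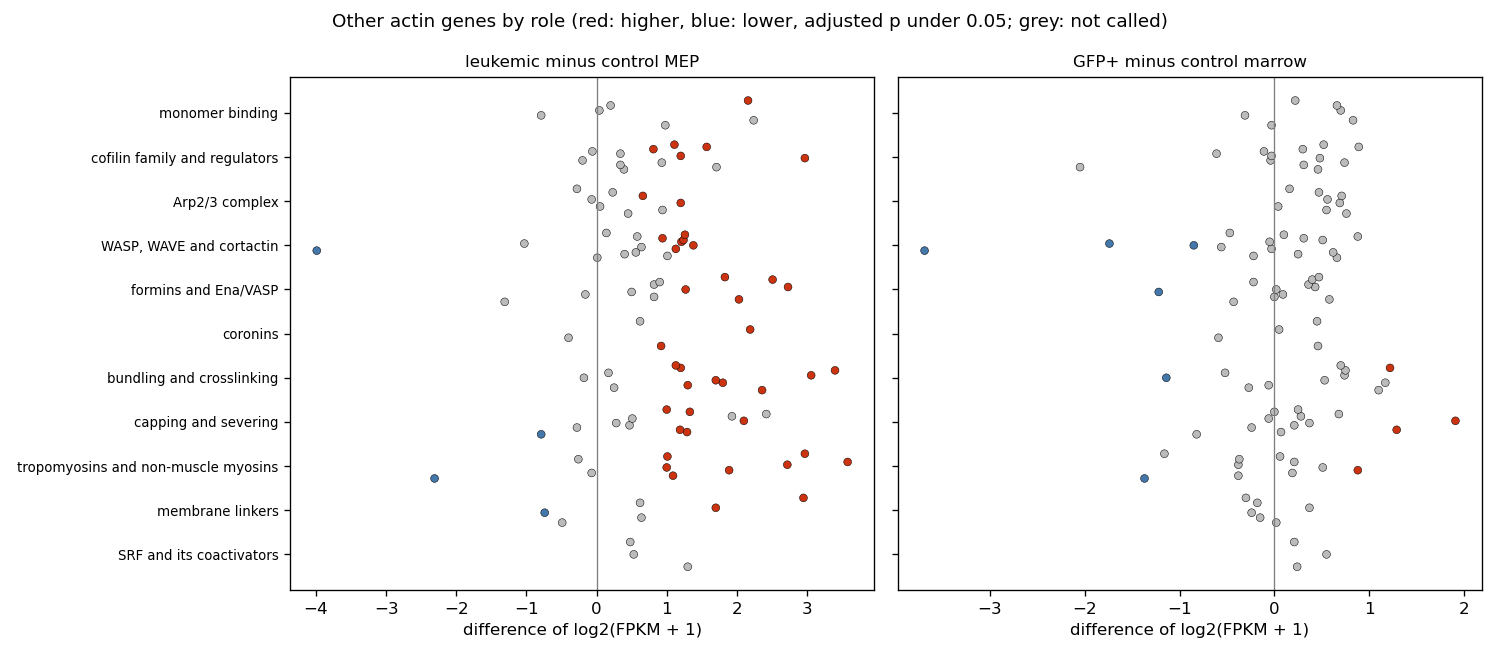
Differences of log2(FPKM + 1) for 98 other actin genes in 11 roles, leukemic minus control MEP on the left and GFP+ minus control marrow on the right; each point is a gene, red if higher and blue if lower at an adjusted p under 0.05. The left panel holds 43 red and 4 blue points and the right panel 4 and 6. The red points on the left include Pls1, which passed the filter on low values only through leukemic MEP.

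The 6 genes whose levels were most like those of Tmsb4x over the 12 libraries were Fxyd5, Dhrs3, Slc7a6, Tbc1d10c, Gm2a and Sh3bgrl3, with Pearson r of log2(FPKM + 1) from 0.985 to 0.996 among 5716 genes compared. These points share groups and libraries, so r is a description only. Fxyd5, which encodes a regulator of the sodium pump, had means of 2.68, 101, 76.0 and 135 FPKM in control MEP, leukemic MEP, control marrow and GFP+ marrow. Sh3bgrl3 had 127, 983, 826 and 1480. Of the other 9 genes, Coro1a had an r of 0.969 with Tmsb4x, Arpc1b 0.963 and Pfn1 0.343.

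Upstream sequence was looked up for the same genes in RefSeq promoters (GRCm38.p6), with 8 of 10 genes matched and Actb and Lsp1 not. In the 250 bases before each start, both strands were searched for the CArG box bound by SRF, for GAGGAA, the core of ETS factors such as PU.1, and for AGATAA, bound by GATA factors. These occur in 1.47, 23.3 and 9.99% of 32851 promoters. The one match among the 8 genes was a CArG box in Actg1. A match is a description, and the lack of one says only that these letters are not in this window.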

How the data were processed

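The deposited table holds FPKM values that the authors computed. Per the submitters' processing notes, CASAVA, bcl2fastq, STAR 2.5.3a and DESeq2 1.18.1 were used, with genome build mm10 (GRCm38); the annotation is not given in the sources used here, nor is the counter. Smart-seq2 cDNA was made into Nextera XT libraries, per the labels. Whole reads over whole-number lengths (tolerance 0.02) explained the values of all 16728 genes above 0, that is 100%, with library denominators proportional to size factors. FPKM totals therefore differ between libraries.

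limma-trend (limma 3.58.1, R 4.3.3) was fitted to log2(FPKM + 1) over 12 libraries and 4 groups, with 8 residual degrees of freedom and Benjamini-Hochberg adjustment over 11462 genes. Fold differences on this scale are understated for low genes. The fit was tested on simulated data. Where the text gives an adjusted p, it is from this fit. Alternatives covered pseudocount, filter, scaling, voom on recovered reads, array weights, fewer groups, a replicate block and leaving out each library. The named genes were the 10 members, the other Arp2/3 genes, paralogs, the largest called rise and fall of each role (mean of at least 10 FPKM in the higher group), the 3 largest differences of changes and the 6 genes most like Tmsb4x. The genes of 1 role are counted in the totals over all roles and are otherwise not reported here. Members, lists and markers were chosen with earlier results of these data known. Python 3.11.15 with pandas 2.3.3 and matplotlib 3.10.9 made the tables and figures.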

Additional observations from a re-analysis of the deposited data

Results flagged for a closer look

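Of the 108 other actin genes tested, 12 had a larger change in MEP than in marrow and none a smaller one (limma, adjusted p under 0.05). Of all tested genes, 4.52% and 0.366% did. At an unadjusted p under 0.05 there were 33 and 1, against 1410 and 602 of all 11462 genes. Voom called 22 and 0, against 793 and 97 of all 11462. The 3 largest are given because the test of the difference itself passed.

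For Tpm4, a tropomyosin gene, the difference was 4.13 ± 0.86 log2 units (adjusted p = 0.0168). It was at 0.537 to 1.24 FPKM in the control MEP libraries, 9.84 to 20.9 in the leukemic ones, 25.6 to 30.3 in control marrow and 26.5, 20.02 and 2.55 in GFP+ marrow 1, 2 and 3. It missed the threshold in 4 of 21 alternatives, 3 of which left out 1 library (control MEP 3 and control marrow 1 and 2; adjusted p = 0.0551, 0.0546 and 0.0543). For Cotl1, whose product binds filaments, the difference was 3.75 ± 0.86 (adjusted p = 0.0272), with levels of 7.80 to 11.5 FPKM in the control MEP libraries, 20.3, 13.8 and 108 in the leukemic ones, 74.3 to 93.7 in control marrow and 10.2 to 32.3 in GFP+ marrow. Without leukemic MEP 3 the difference was 2.88 and the change in MEP 0.83. Its changes, 1.71 in MEP and -2.05 in marrow, did not pass on their own (adjusted p = 0.0562 for both), and the call of the difference was lost in 8 of 21 alternatives, 7 of them leaving out 1 library (each control library of either kind or GFP+ marrow 2), with adjusted p up to 0.0821. For Myo1g the difference was 3.36 ± 0.62 (adjusted p = 0.00884), lost in 1 of 21 alternatives, a pseudocount of 10 (adjusted p = 0.113).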

How the results depend on the processing

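The numbers of other actin genes called were 52 (MEP), 10 (marrow) and 12 (difference of changes). Array weights gave 80, 35 and 55, with 3251 higher and 2900 lower of all 11462 genes in MEP. They called 1547 and 1906 of all genes in marrow and 1962 and 1004 for the difference. In marrow, the filter at 5 FPKM gave 5 (292 higher and 473 lower of all 8431) and voom 22 (804 and 1102 of 11462). The 2 marrow groups alone gave 23 (838 and 937 of 10843). For the difference, a pseudocount of 10 gave 5 (357 and 54 of 11462) and no filter 5 (513 and 56 of 16728). Equal library totals gave 21 (705 and 18 of 11464) and voom 22 (793 and 97 of 11462). Leaving out 1 library gave 34 to 53, 2 to 23 and 3 to 23. The difference count was 23 without leukemic MEP 3, with 864 and 211 of all 11342 genes. It was 4 and 3 without control MEP 1 and 3, and 3, 3 and 4 without control marrow 1, 2 and 3. It was 7 without leukemic MEP 1, and 6 without GFP+ marrow 1 or 2. Without control MEP 3, 257 of all 11413 genes had a larger change in MEP and 4 a smaller one. The cause of these moves was not tested. With the replicate block the counts were 52, 8 and 8. The labels do not say whether same-numbered libraries belong together. Between control and Prdm16s groups, same-numbered libraries had deviations correlated at -0.157 to -0.0521 in MEP and -0.0619 to 0.0204 in marrow. The range was 0.0734 to 0.497 between the control groups. It was 0.0862 to 0.215 between the Prdm16s groups, in which the number also goes with Xist. Of 12 libraries, 7 correlated best with their own number. Whether the number marks a shared origin was not tested. Of 1090 differences of the 10 genes under alternatives, 1042 moved by less than the spread between replicates and 48 by more. Many alternatives cannot move such a difference. These are a change of filter, fewer groups, the replicate block, and leaving out a library outside the groups compared. The 1042 are therefore not a measure of stability. The paralog ratios were checked only for the difference between leukemic and control MEP, leaving out 1 MEP library at a time. All 48 of these values moved by less than the spread of the ratio between replicates. A mean of 3 libraries cannot move by more than this spread when 1 is left out. The check could not fail, and nothing is read from it. Ratios in marrow and under other processing were not checked. The 0.5717 M reads of leukemic MEP 3 limit the values of Tmsb10 and Actg1 there.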
